A study of Mus musculus with 8 samples.

Results

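Myb and 9 transcription factors of T lymphocytes (Lef1, Tcf7, Bcl11b, Satb1, Ets1, Runx3, Gata3, Bach2 and Foxo1) were followed in whole blood of stressed and unstressed mice. All probe sets with a member as their single gene name in the platform annotation were taken, which gave 28 of the 45101 probe sets of the array. Of the 10 genes, 9 had at least 1 such probe set, and Tcf7 had none under that name and is not measured here. The brightest probe set of each gene stands for the gene, and 26 of the 28 probe sets passed a filter on low intensity that kept 25084 probe sets and 11762 genes. The genes were chosen by a look at the RST against control differences of these same arrays, so their differences between the groups are a description and carry no test.

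Blood was taken on Day 7 from female C57BL/6J mice, which were 6 to 8 weeks old when purchased. Restraint stress (RST) mice (n = 4) were held in ventilated tubes for 6 h per day, and control mice (n = 4) had no food or water during the same hours and were left alone otherwise. No mouse carried a transgene or received a drug. Each mouse gave 1 array, so the spread between arrays is that between animals, and their number limits the precision. Values are deposited log2 levels, on which a difference of 1 is a doubling, and a level on one probe set cannot be set against that on another.

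Transcription factors of this kind bind DNA and set which genes a lymphocyte uses. Myb is known as a factor of blood progenitors and of developing T and B cells. Lef1 and Tcf7 are partners of beta-catenin in T cells, Bcl11b holds T cell identity, Satb1 organises chromatin, and Ets1, Runx3, Gata3, Bach2 and Foxo1 act in the development, survival and resting state of T cells, several of them in B cells too. Whole blood mixes these cells with granulocytes, monocytes, platelets and young red cells, and fewer cells of a type cannot be told apart from less RNA per cell. Bright markers of blood cells, chosen after their values were seen, were present in the labelled tissue. The control means were 10.97 for Hba-a2 (alpha globin), 12.35 for S100a9 (neutrophils), 9.17 for Cd3e (T cells) and 9.35 for Cd79a (B cells). Some other markers of these cells were dim, and Hba-a1 (alpha globin) and Pax5 (B cells) did not pass the intensity filter.

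The 250 bases before the RefSeq gene start are shown for Myb and for the 2 factors whose levels ran with it most positively (Lef1) and most negatively (Foxo1) within the groups, relative to the median gene. They lie at chr10:21160985-21161234 (Myb, minus strand), chr3:131110047-131110296 (Lef1, plus strand) and chr3:52268087-52268336 (Foxo1, plus strand) of GRCm38.p6 and are taken from RefSeq. Capitals mark matches on either strand to the GC box GGGCGG and to the Myb recognition core AACNG, which can overlap.
Myb: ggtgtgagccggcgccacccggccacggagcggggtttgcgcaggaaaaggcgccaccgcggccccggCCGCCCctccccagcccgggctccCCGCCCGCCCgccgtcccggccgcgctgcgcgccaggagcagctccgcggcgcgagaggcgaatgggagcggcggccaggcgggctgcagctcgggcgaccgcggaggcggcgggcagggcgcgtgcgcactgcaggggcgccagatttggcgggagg
Lef1: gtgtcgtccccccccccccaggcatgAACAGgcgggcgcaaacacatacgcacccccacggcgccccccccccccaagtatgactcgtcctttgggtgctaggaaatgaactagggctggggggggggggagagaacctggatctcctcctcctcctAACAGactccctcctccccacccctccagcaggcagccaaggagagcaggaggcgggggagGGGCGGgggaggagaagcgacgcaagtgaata
Foxo1: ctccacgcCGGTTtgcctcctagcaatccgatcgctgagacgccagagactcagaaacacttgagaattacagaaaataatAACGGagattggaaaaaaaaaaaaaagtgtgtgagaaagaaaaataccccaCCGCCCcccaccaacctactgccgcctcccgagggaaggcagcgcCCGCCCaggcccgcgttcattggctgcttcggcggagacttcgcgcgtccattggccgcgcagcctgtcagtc
Windows were matched by symbol for 9 of the 10 genes, all but Ets1. The Myb window was 81.2% G and C, against a median of 52.4% over 32851 such windows of 27025 genes, and it held 40 CG pairs, against a median of 6. It had 3 GC boxes and no match to AACNG. The Lef1 window held 1 GC box and 2 AACNG matches and the Foxo1 window 2 of each. Of all windows, 32.7% held the GC box and 74.2% the Myb core, so these short matches are a description of the letters only. The Myb gene itself lies at chr10:21124930-21160984, Lef1 at chr3:131110297-131224357 and Foxo1 at chr3:52268337-52350109 of the same build.

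The arrays were not on quite the same scale. The median gene lay at 5.25 to 5.58 in the control mice and at 5.11 to 5.36 in RST mice 1 to 3, but at 4.53 in RST mouse 4, which had the lowest value of all 8 mice in 41.5% of the tested probe sets. Control mice 1 and 2 and RST mouse 2 had the lowest hybridization controls (11.90 to 12.35, against 12.60 to 12.74 in the other 5 arrays). The log2 fold change, RST minus control, had a median of −0.24 over all genes, so levels are also given after subtracting the array's own median gene (relative to the median gene). The part of these array differences in the results was not tested. In limma none of the 25084 probe sets passed an adjusted p under 0.05 with a fold change above 1.5 (0% in either direction). At an unadjusted p under 0.05 and the same fold, 3337 (13.3%) differed, 2613 (10.4%) lower and 724 (2.89%) higher in RST mice. With a trended, robust prior 35 probe sets (0.14%) were called, none of them of these 9 genes.

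Myb had the largest log2 fold change of the 9 measured genes at their brightest probe sets. Its levels were 7.55, 6.94, 7.85 and 7.51 in control mice 1 to 4 and 6.45, 6.02, 6.13 and 6.54 in RST mice 1 to 4. Every RST mouse lay below every control mouse, with means of 6.28 ± 0.25 and 7.46 ± 0.38 (SD, n = 4 each). This was a log2 fold change of −1.18 with a standard error of 0.28, or 2.27-fold lower. Of all genes tested, 1.69% had a lower one. With the mean over all probe sets of a gene, Bach2 had a larger change (−1.23) than Myb (−1.06).
The separation of the groups depended on the scale. Relative to the median gene, Myb lay at 1.98, 1.36, 2.57 and 2.26 in the control mice and at 1.33, 0.67, 0.90 and 2.01 in the RST mice, so RST mouse 4 reached the level of the controls. After quantile normalization the groups overlapped as well, and the log2 fold change was −0.91. It was −1.26 without RST mouse 4 and −1.40 without control mice 1 and 2.
Myb was read by 3 probe sets, and the RST mean was the lower one for all 3. The name of the brightest ends in _x_at, which Affymetrix uses where some probes may also match other transcripts. A second, whose name ends in _a_at, read 5.28, 4.80, 4.62 and 5.48 in control mice and 4.32, 2.92, 3.11 and 3.71 in RST mice. Its groups did not overlap either, also relative to the median gene, and its log2 fold change was −1.53 (standard error 0.35). The third lay at 4.06 ± 0.43 in control and 3.58 ± 0.71 in RST mice (SD, n = 4) and overlapped.

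**Figure D1:**
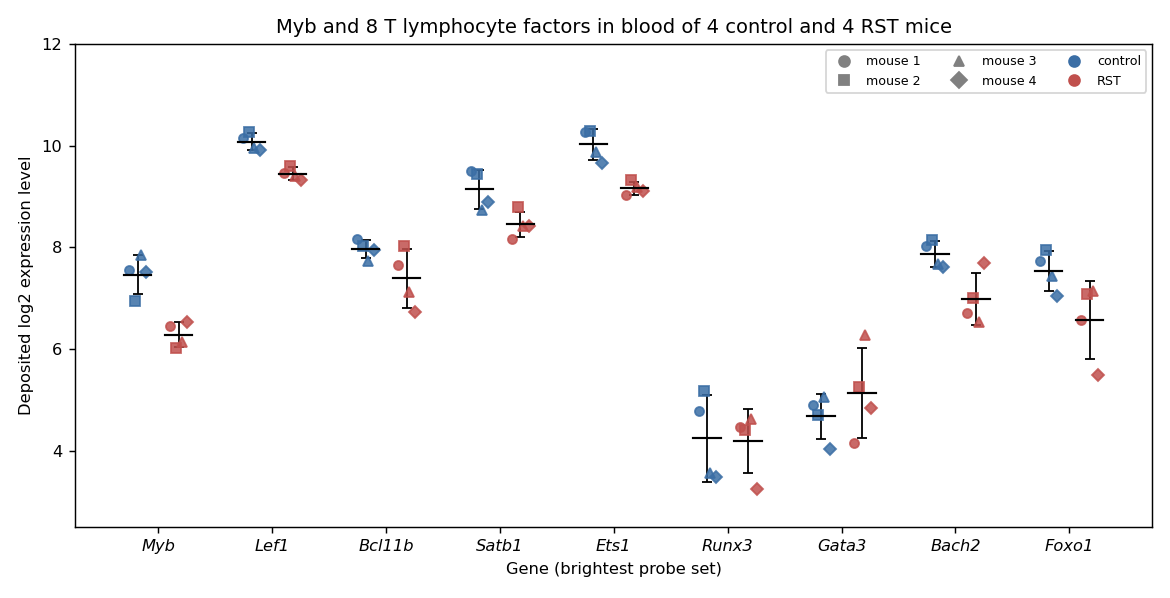
Deposited log2 level of each gene at its brightest probe set, 1 point per mouse (shape, mouse number; blue, 4 control; red, 4 RST), with mean and SD as black bars. The groups do not overlap for Myb, Lef1 and Ets1, and RST mouse 4 (diamond) is the lowest of 8 mice for 4 genes but not for Myb, where it is the highest RST mouse.

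The lymphoid factors split into 6 with a lower mean in RST mice by 0.58 to 0.96 log2 units, 1 with nearly equal means (Runx3) and 1 with a higher mean (Gata3). Counting Myb, 8 of 9 genes had a lower mean, against 67.6% of all genes tested (1 of 9 had a higher one, against 32.4%), and 3 of 9 (Myb, Lef1 and Ets1) were lower in every RST mouse than in any control mouse, against 6.57%. None of the 9 was higher in every RST mouse, against 2.37%. Since the genes were chosen with this comparison in view, nothing is read from these shares. The median of the 8 lymphoid factors was −0.66, or −0.41 relative to the median gene. Relative to the median gene, 7 of the 9 changes were below 0, against 50% of genes by construction, and the groups overlapped for each of the 9 genes, where 2.82% of all genes were lower in every RST mouse.

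Lef1, the beta-catenin partner of naive T cells, read 10.15, 10.27, 9.96 and 9.91 in control mice and 9.47, 9.61, 9.41 and 9.31 in RST mice. The groups did not overlap and the spread within each was small (SD 0.17 and 0.12), with a log2 fold change of −0.62 (standard error 0.24). It was −0.48 without control mice 1 and 2 and −0.58 without RST mouse 4. The groups overlapped at its second probe set (−0.56, standard error 0.47).
Ets1, the founding member of the ETS family, read 10.27, 10.28, 9.88 and 9.66 in control and 9.03, 9.33, 9.19 and 9.10 in RST mice, again without overlap. Its log2 fold change was −0.86 (standard error 0.25), and the other 3 probe sets gave −0.86 to −1.07. Those 3 probe sets overlapped between the groups. Without control mice 1 and 2 the change at the brightest was −0.61.
Satb1, the chromatin organiser, read 9.50, 9.44, 8.73 and 8.90 in control and 8.17, 8.79, 8.42 and 8.42 in RST mice. Only RST mouse 2 reached the control range, above control mouse 3, and the log2 fold change was −0.69 (standard error 0.28). All 5 Satb1 probe sets, 1 of them below the filter, had a lower mean, from −0.21 to −0.95. Without control mice 1 and 2 the change was −0.36.

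Bach2, a repressor that keeps lymphocytes from terminal differentiation, read 8.03, 8.14, 7.68 and 7.62 in control and 6.72, 7.00, 6.52 and 7.69 in RST mice. RST mouse 4 alone lay in the control range, and the log2 fold change was −0.88 (standard error 0.31). It was −1.12 without RST mouse 4 and −0.67 without control mice 1 and 2.
The probe sets of Bach2 disagreed on that mouse. At the next brightest the control mice read 7.86, 7.78, 7.30 and 7.28 and the RST mice 6.36, 6.96, 5.69 and 5.46, with RST mouse 4 the lowest of all. Both dimmer probe sets of Bach2 separated the groups, also relative to the median gene, at −1.44 (standard error 0.35) and −1.36 (standard error 0.32).
Foxo1, which sustains naive T cells, read 7.72, 7.94, 7.44 and 7.04 in control and 6.57, 7.08, 7.14 and 5.50 in RST mice. The groups overlapped through RST mice 2 and 3, with a log2 fold change of −0.96 (standard error 0.38) that was −0.61 without RST mouse 4. Its dimmest probe set had a higher mean in RST mice (0.31, standard error 0.28), and relative to the median gene every RST mouse lay above every control mouse there, while the mean over the 4 probe sets was −0.48.
Bcl11b, the T cell identity factor, read 8.16, 8.02, 7.73 and 7.94 in control and 7.66, 8.03, 7.12 and 6.73 in RST mice. RST mouse 2 was within the control range, and the log2 fold change was −0.58 (standard error 0.31), or −0.36 without RST mouse 4. All 4 probe sets had a lower mean, from −0.39 to −1.19, and all overlapped.

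Runx3, a factor of CD8 T cells and NK cells, read 4.77, 5.17, 3.55 and 3.48 in control and 4.46, 4.40, 4.62 and 3.25 in RST mice. The controls fell into a high and a low pair, with RST mice 1 to 3 between them and RST mouse 4 below all controls, and the log2 fold change was −0.059 (standard error 0.44). Its direction turned with the processing, to 0.13 after quantile normalization, 0.52 with the hybridization controls as a covariate and 0.67 when control mice 1 and 2 were left out. Dropping a single control mouse (1, 2, 3, 4 in turn) gave 0.12, 0.25, −0.29 and −0.31, and dropping a single RST mouse gave −0.15, −0.13, −0.21 and 0.25.
Gata3, the factor of T helper commitment, read 4.89, 4.70, 5.05 and 4.04 in control and 4.15, 5.25, 6.26 and 4.84 in RST mice. RST mouse 3 stood highest, and the log2 fold change of 0.45 (standard error 0.42) was 0.073 without that mouse. It was 0.78 without RST mouse 1 and 0.24 without control mouse 4.

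**Figure D2:**
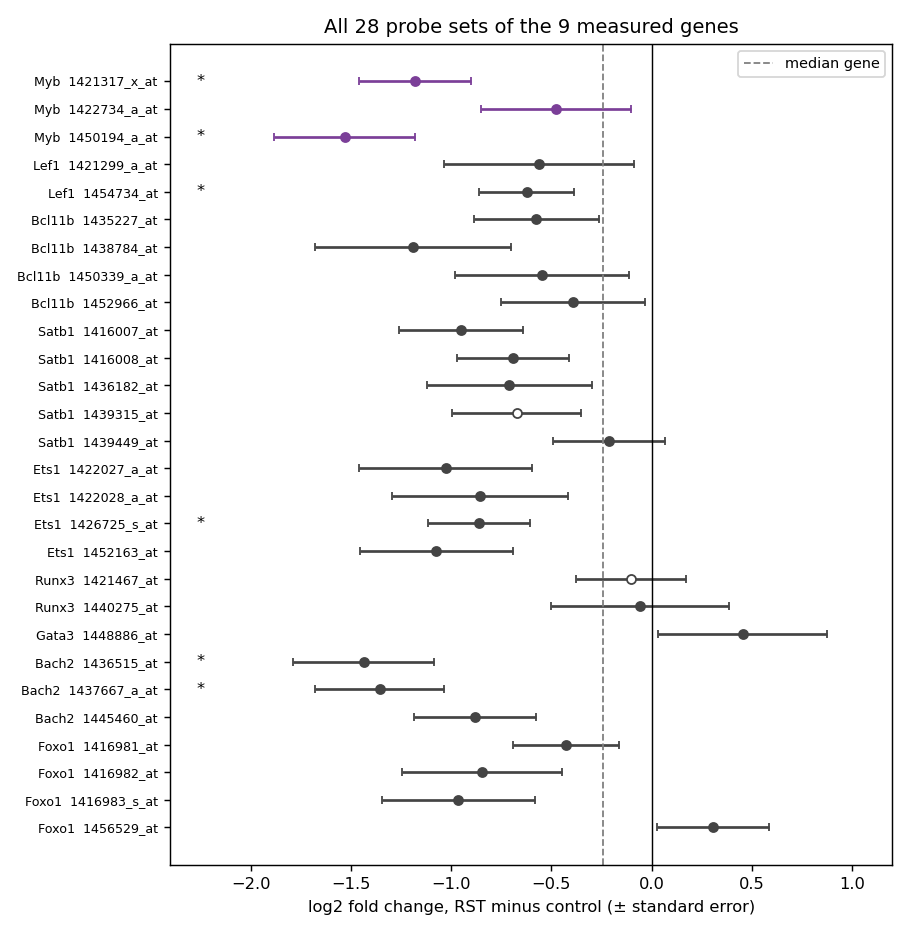
Log2 fold change (RST minus control, with its standard error from limma, 4 mice per group) for all 28 probe sets of the 9 measured genes. Purple marks Myb, open circles the 2 probe sets below the intensity filter, asterisks the 6 whose RST values all lie below the control values, and the dashed line the median gene at −0.24. All but 1 probe set of Foxo1 and that of Gata3 lie below 0.

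Of the 26 probe sets past the filter, 24 had a lower mean under RST (65.3% of all tested) and 2 a higher one (34.7%). Of these 26, 6 were lower in every RST mouse than in any control mouse (2 of Myb, 2 of Bach2, 1 each of Lef1 and Ets1), against 5.76% of the 25084 tested, and none was higher in every RST mouse, against 2.23%. Probe sets of 1 gene share its RNA and are not separate evidence.

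Whether Myb followed the lymphoid factors was asked within the groups, over deviations of each mouse from its group mean, which leave out the RST against control difference. On the deposited levels Myb ran against the factors. Among RST mice the order of the 8-factor mean was 7.44 (mouse 2), 7.34 (mouse 3), 7.03 (mouse 1) and 6.86 (mouse 4), and Myb had exactly the opposite order. Among control mice the highest factor mean, 8.00 in mouse 2, went with the lowest Myb level. The correlation within groups was r = −0.74 over the 8 mice.
Relative to the median gene the relation was gone, with r = 0.0046 and Spearman rho = −0.17. Over all 8 mice without removing the group means, r was 0.33 and rho 0.21. Without the 2 mice farthest from the median of the factor mean, RST mouse 1 and control mouse 2, the within-group r was 0.50, and without RST mouse 4 it was −0.75. These values rest on a score over genes chosen with results known, so no p is given for them. RST mouse 4, whose median gene was the lowest, lay last in the factor mean on deposited levels and first among RST mice relative to the median gene. In Myb it was the highest RST mouse on both scales. The relative levels of Myb and of the factors subtract the same array median, and the part of the array scale in r was not tested.

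**Figure D3:**
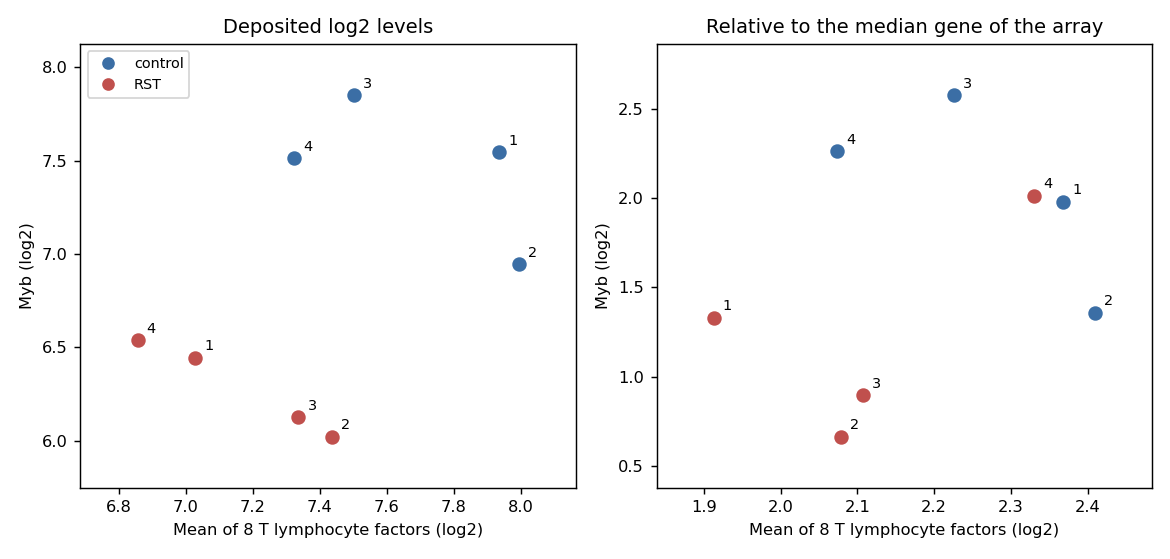
Myb (vertical axis) against the mean of the 8 measured lymphoid factors (horizontal axis), both log2, 1 point per mouse with its number (blue, control; red, RST). On the deposited levels (left) Myb falls as the factor mean rises among the RST mice, and relative to the median gene (right) RST mouse 4 lies beside control mouse 1.

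Each factor was also set against Myb alone, in 8 pairs. On deposited levels r was below 0 for all 8, from −0.77 (Lef1) to −0.0087 (Bach2). Relative to the median gene it was below 0 for 3 and above 0 for 5, where 56.8% of all genes had an r with Myb above 0. No pair passed after adjustment over the 8 pairs on either scale.
Foxo1 ran most strongly against Myb relative to the median gene, with r = −0.80 (exact permutation of mice within groups, two-sided, p = 0.040, adjusted p = 0.16) and rho = −0.79 (exact permutation p = 0.038). Without RST mouse 4 and control mouse 2, the farthest in Foxo1, r was −0.37. The probe sets of Foxo1 disagreed on RST mouse 4, which limits that value. It was the lowest RST mouse at the probe set used (5.50) and at the dimmer ones reading 4.54 and 3.15. At the next brightest it was the highest RST mouse (6.11). The r of Foxo1 at its other probe sets was not tested. Runx3 gave r = −0.74 (exact permutation p = 0.031, adjusted p = 0.16) and rho = −0.74 (exact permutation p = 0.063), and r = −0.68 without control mice 3 and 4. These were also negative on the deposited levels, at −0.65 for Foxo1 and −0.74 for Runx3.
Lef1 had opposite signs on the 2 scales. It had r = 0.69 relative to the median gene (exact permutation p = 0.061, adjusted p = 0.16) and rho = 0.48 (exact permutation p = 0.26), against −0.77 on deposited levels, and r was 0.45 without RST mice 2 and 3. Ets1 (0.45 and −0.60) and Satb1 (0.14 and −0.70) turned in the same way, and Bach2 was at 0.60 and −0.0087. The probe sets of Bach2 disagreed on RST mouse 4, as described above, which limits that value.

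**Figure D4:**
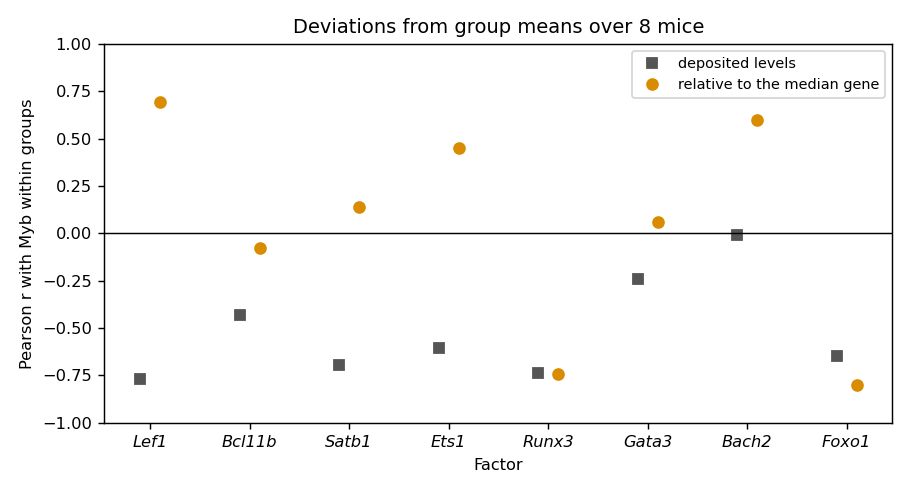
Pearson r between Myb and each of 8 lymphoid factors over 8 mice, after removing group means, on deposited levels (grey squares) and relative to the median gene (orange circles). All 8 squares lie below 0, while the circles range from −0.80 (Foxo1) to 0.69 (Lef1).

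How the factors ran with each other also depended on the scale. Within groups and relative to the median gene, Ets1 (r = 0.81) and Satb1 (r = 0.72) ran with the mean of the other 7 factors, while Bcl11b ran against it (r = −0.59). Lef1 was at 0.37, Bach2 at 0.25, Gata3 at −0.017, Runx3 at −0.11 and Foxo1 at −0.29. On deposited levels, which share the array scale, 7 of the 8 values were above 0: Ets1 0.89, Lef1 0.87, Runx3 0.79, Foxo1 0.77, Satb1 0.76, Bcl11b 0.39 and Gata3 0.28, with Bach2 at −0.18.
Cell type markers were set beside them. Of 9 marker lists, the mean of the 8 factors had its highest r with the monocyte markers (0.89, rho 0.95; 0.99 on deposited levels), followed by the B cell markers (0.86, rho 0.79; 0.88 on deposited levels), while r with the T cell markers was −0.076 (0.76 on deposited levels). Without RST mouse 1 and control mouse 2, r with the monocyte markers was 0.78. Bcl11b had r = 0.70 with the mean of 15 T cell markers (exact permutation p = 0.036, adjusted p = 0.17 over 16 relations; rho = 0.62, exact permutation p = 0.11) and 0.90 on deposited levels. Without control mouse 1 and RST mouse 3, the farthest in the markers, r was 0.66. Bach2 had r = 0.68 with the mean of 11 B cell markers (exact permutation p = 0.0035, adjusted p = 0.056; rho = 0.71, exact permutation p = 0.021), and 0.33 on deposited levels. Ets1 had r = 0.84 with the B cell markers (exact permutation p = 0.017, adjusted p = 0.14; rho = 0.71, exact permutation p = 0.069), and 0.96 on deposited levels. Satb1 had r = 0.76 with the B cell markers (exact permutation p = 0.042, adjusted p = 0.17), and 0.83 on deposited levels. Its rho was 0.64 (exact permutation p = 0.11). Without control mice 1 and 2, r was 0.93 for Bach2, 0.95 for Ets1 and 0.71 for Satb1. At the Bach2 probe set used, RST mouse 4 was the highest RST mouse (7.69), but at the next brightest it was the lowest (5.46). That mouse also had the highest B cell score among RST mice (0.052). The r of Bach2 at its other probe sets was not tested. None of the 16 relations passed after adjustment. The relations of the factor mean with the 9 lists were adjusted apart. There the monocyte markers passed relative to the median gene (exact permutation p = 0.0052, adjusted p = 0.047). On deposited levels the monocyte and B cell markers passed (exact permutation, adjusted p = 0.016 and 0.031). The factor mean is a score over genes chosen with results known. The marker lists too were chosen with earlier results known, so these p values are given as a description. Myb itself had r = 0.031 with the T cell and 0.051 with the B cell markers, and −0.57 and −0.59 on deposited levels.

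Markers of the cells that carry these factors were lower in RST mice too. All 15 T cell markers had a lower mean (median −0.68, against −0.24 over all genes), and their score relative to the median gene, 0.041 to 0.33 in control and −0.31 to −0.040 in RST mice, did not overlap. All 11 B cell markers past the filter had a lower mean (median −1.09; score −0.067 to 0.63 in control and −0.55 to 0.052 in RST mice). Of the markers of other cells, 8 of 9 for NK cells (median −0.82) and 7 of 8 for monocytes (median −0.56) had a lower mean, 5 of 10 for neutrophils (median −0.24), 1 of 10 for platelets (median 0.24) and 0 of 9 for erythroid cells (median 0.41). Of all genes tested, 67.6% had a lower and 32.4% a higher mean. The part of these markers in the levels of these factors was not tested. The lists were not tested as sets, and no single gene in them passed the adjusted threshold in limma.
The other T cell factors and the targets of naive T cells lay close to the members. Of 27 other T cell factors past the filter, 25 had a lower mean (median −0.66; 67.6% of all genes), and 3 were lower in every RST mouse (6.57% of all genes). Tcf3, an E protein, was at −1.18 on the log2 fold change scale (standard error 0.36) and Ikzf3, a lymphocyte zinc finger factor, at −1.25 (standard error 0.40). All 11 genes of the list of naive T cell genes and Foxo1 and Tcf7 targets had a lower mean (median −0.67). S1pr1, the receptor with which lymphocytes leave lymphoid organs, was at 6.32 ± 0.61 in control and 4.75 ± 0.68 in RST mice (SD, n = 4; log2 fold change −1.57, standard error 0.40). Ccr7, the lymph node homing receptor, had −0.92 (standard error 0.29).

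Relatives and partners of the members had means on both sides. Of 15 relatives from the ETS, RUNX, GATA, BCL11, BACH and FOXO families, 8 had a lower mean (67.6% of all genes) and 7 a higher one (32.4%), with a median of −0.10. Their score relative to the median gene was −0.19 to −0.047 in control and 0.027 to 0.27 in RST mice. Foxo4 was higher in every RST mouse (0.73, standard error 0.26), as was Foxo3 (0.56, standard error 0.27), beside the lower mean of Foxo1. Gabpa, an ETS factor, was lower in every RST mouse (−0.82, standard error 0.33).
Of 8 relatives and cofactors of Myb past the filter, 5 had a lower mean (67.6% of all genes) and 3 a higher one (32.4%), with a median of −0.041. Their score was −0.30 to −0.069 in control and −0.0021 to 0.49 in RST mice. Whether these lists differed from the members was not tested. Hipk2, a kinase that acts on Myb, was higher in every RST mouse (0.59, standard error 0.25), and the coactivator Ep300 had −0.56 (standard error 0.38). Of 10 listed Myb targets past the filter, 6 had a lower mean, against 67.6% of all genes (median −0.30). Hspa8 was at −0.65 (standard error 0.25), Ikzf1 at −0.51 (standard error 0.29) and Cd4 at −0.25 (standard error 0.27).
Of 11 partners of Tcf and Lef factors, 9 had a lower mean, against 67.6% of all genes (median −0.33). The corepressors Tle4 (−0.57, standard error 0.24) and Tle3 (−0.73, standard error 0.32) had the smallest p of that list, and Ctnnb1, which encodes beta-catenin, was lower in every RST mouse (−0.49, standard error 0.26). None of the genes in these lists passed the adjusted threshold in limma.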

How the data were processed

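The authors deposited log2 expression levels per probe set for 8 whole-blood samples on Affymetrix mouse GeneChips (30 ng RNA each, amplified and labeled), already background-corrected, normalized and summarized. Partek, RMA and Expression Console 1.2.0.20 stand in the submitters' processing notes, and GSRMA in the methods. The 64 control probe sets were removed, and a probe set was kept if, in either group, 2 or more of the 4 arrays had it above the array's median. RST and control were compared over all 25084 kept probe sets with limma 3.58.1 in R 4.3.3 (lmFit, eBayes, Benjamini-Hochberg). The methods' analysis of variance was an alternative. The platform annotation gave the gene names, brought up to date by Entrez identifier (gene table of GRCm38.p6; 34754 of 34958 probe sets with 1 gene; 932 with several were not named). The fixed plan counted 9 lymphoid factors, of which 8 were measured.

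Level relative to the median gene is the log2 value minus the median of the 11762 genes on that array, and a list score is its mean over the list, minus each gene's mean. Correlations used deviations from the group means and exact permutation of the mice within groups (576 arrangements). Members and gene lists were chosen with earlier results of these data known. Named beyond the members are the 2 genes with the smallest p of a list and the 8 genes most like Myb. Cd4, Foxo3, Ctnnb1 and the tissue markers were chosen after their values were seen. The fit and the correlation were tested on simulated data. Same-numbered mice of the 2 groups were treated as unpaired, since the labels give only replicate numbers. Correlations of their deviations were −0.24, 0.42, 0.046 and 0.20, against −0.54 to 0.52 for mice of unlike number. So few values cannot decide whether mice were paired. Plots were made in Python 3.11.15 (matplotlib 3.10.9).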

Additional observations from a re-analysis of the deposited data

Results flagged for a closer look

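2 of the 58 groups of 4 mice examined held a mouse far from the others, where chance gives about 1 in 20. At the second brightest Bcl11b probe set, control mouse 3 read 5.70, against 7.39 to 7.70 in the other 3 control mice. At the brightest probe set of Runx3, RST mouse 4 read 3.25, against 4.40 to 4.62 in the other 3 RST mice.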

How the results depend on the processing

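No probe set was called in limma by quantile normalization, scaling to the control probe sets, another filter, a floor, array weights, the methods' analysis of variance, the hybridization controls as a covariate, the replicate block or leaving out any 1 mouse, while the trended and robust prior called 35. Of the 9 measured genes, 7 or 8 had a lower mean under each alternative. Runx3 did not pass the stricter filter and is not counted there. The median of the lymphoid factors relative to the median gene was −0.41, and it was −0.61 after quantile normalization and −0.61 with no intensity filter. Leaving out 1 mouse gave −0.48 to −0.36, and leaving out control mice 1 and 2, an alternative chosen after seeing the data, −0.32. Myb, Lef1, Bcl11b, Satb1, Ets1, Bach2 and Foxo1 were below 0 and Gata3 above 0 under each alternative run, and Runx3 was above 0 under 6. The filters, the floor and the replicate block leave these fold changes as they are and say nothing of their stability. With the replicate block the count of lower genes was 8, the factor median −0.41 and r between Myb and the factor mean 0.23.

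That correlation had no stable direction. Its value of 0.0046 turned to −0.36 after quantile normalization, −0.56 with no filter, −0.20 with the mean over all probe sets of a gene and −0.74 on deposited levels. It was −0.17 with the second Myb probe set, chosen after seeing the data. Leaving out 1 mouse gave −0.75 to 0.32. It was 0.58 with the stricter filter, 0.56 with the hybridization controls as a covariate and 0.59 without control mice 1 and 2. Without a filter the change came only through the median gene of each array, while the stricter filter also left Runx3 out of the measured genes. The deposited levels use the same probe sets, so there too the change came only through the median gene subtracted from each array. Why the array medians differed was not tested, and neither was the cause for the quantile values. Depth has no counterpart on arrays, and dim probe sets such as those of Runx3 and Gata3 limit what can be read.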

Other observations

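Markers of blood progenitors, where Myb is best known, were mostly dim. Of 14 listed, 8 (Kit, Cd34, Flt3, Erg, Mpo, Elane, Ctsg and Lin28b) did not pass the intensity filter. The other 6 were split evenly, with 3 lower and 3 higher means in RST mice (median 0.020). Hoxa9, a progenitor factor, was at 3.01 ± 0.57 in control and 3.65 ± 0.23 in RST mice (SD, n = 4). Of 14 proliferation genes 9 had a lower mean (67.6% of all genes) and 5 a higher one (32.4%), with a median of −0.14. Mcm3, a replication helicase subunit, was at −0.73 (standard error 0.30) and Cdk1 at −0.58 (standard error 0.29). Within groups and relative to the median gene, r of Myb was 0.61 with the progenitor markers (0.11 on deposited levels; 0.71 without control mouse 1 and RST mouse 2; exact permutation p = 0.15, adjusted p = 0.33 over 9 marker lists; rho = 0.64, exact permutation p = 0.12) and 0.0032 with the proliferation genes. The strongest of the 9 was −0.82 with the NK cell markers (−0.77 on deposited levels; exact permutation p = 0.035, adjusted p = 0.19; rho = −0.69, exact permutation p = 0.11), which was −0.94 without RST mouse 4 and control mouse 4. The platelet markers gave 0.76 (−0.35 on deposited levels, 0.11 without control mouse 2 and RST mouse 4) and the erythroid markers 0.68 (0.28 on deposited levels, 0.31 without control mice 1 and 2). None of the 9 passed after adjustment on the relative scale. These lists were chosen with earlier results known, so their p values are a description. All 9 erythroid markers past the filter had a higher mean in RST mice (median 0.41; 32.4% of all genes), and 4 were higher in every RST mouse (2.37% of all genes).

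The 8 genes most like Myb within the groups, by r over 8 mice relative to the median gene, were Smr3a (0.99), Olfr749 (0.99), Palmd (0.99), Cgas (0.98), Ido2 (0.98), Lmod3 (0.98), Dnah8 (0.98) and Alg14 (0.98). They were chosen from 11761 genes by that value, which is a description. Most were dim: their control means ran from 2.97 (Palmd) to 5.85 (Cgas). All but Cgas lay below the median gene of each control array, which limits what can be read from them. No lymphoid factor was among them: 20.8% of all genes had a higher r than Lef1, 36.7% than Ets1 and 95.3% than Foxo1. On deposited levels these 8 genes kept an r of 0.76 to 0.98 with Myb. Of the 8, 1 (Dnah8, log2 fold change −0.63, standard error 0.25) was lower in every RST mouse, against 6.57% of all genes.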
